A study of Homo sapiens with 5 samples.

Results

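The major histocompatibility complex (MHC) is the gene-dense stretch of chromosome 6 that holds the HLA genes. Its accessible sites were described here in 5 human B-lineage cell lines assayed by DNase-seq, in which DNase I cuts open chromatin and the released fragments are sequenced. The members were all peaks of the 5 deposited peak lists that overlapped chromosome 6 from 29.7 to 33.4 Mb (hg18). Class I was taken as 29.7 to 31.5 Mb, class III, which holds the TNF and LTA genes, as 31.5 to 32.4 Mb, and class II as 32.4 to 33.4 Mb. Of 109231 peaks on chromosomes 1 to 22 and X, 667 were members. Overlapping peaks of different lines were joined into merged regions, which gave 260 regions in the MHC of 59212 in all. No region lay across a limit of the complex or of a class. The nearest region inside the upper limit ended 0.4 kb before it, and the nearest outside began 20.9 kb after it.

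Hodgkin lymphoma was the origin of 3 lines, L1236, L428 and L591. The labels group the other lines as non-Hodgkin, namely Reh, a pro-B lymphoblastic leukaemia, and the Burkitt lymphoma line Namalwa. All were untreated established cultures used at passage 7, with DNase I used at 12 U/ml on nuclei of L591 and Namalwa and at 6 U/ml on those of the other lines. Each line gave 1 library and 1 list, so the lines are the only replicates of a group. The p-values rank an observed value among regroupings of the lines, or among sign flips of the values per line. The read depth behind the lists is unknown. The Namalwa list held 5760 peaks and the other 4 held 23288 to 27925, and the short list limits every count that needs a Namalwa peak or its absence. The labelled cell types were not checked against marker genes, because no hg18 gene annotation was used here.

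Class I genes encode the HLA molecules that present peptides from inside the cell to CD8 T cells. Class II genes encode the molecules that B cells and other antigen-presenting cells use to show peptides to CD4 T cells, and in B cells they are switched on through the transactivator CIITA. The class III stretch between them carries complement and stress genes and the cytokine genes TNF, LTA and LTB, which are targets of NF-kB. Hodgkin tumour cells are known for constant NF-kB activity, for cytokine production and for frequent loss of HLA molecules. In the RefSeq annotation of GRCh38.p14 the cytokine genes follow each other in the order NFKBIL1, LTA, TNF, LTB and LST1. The class II genes run from HLA-DRA through HLA-DRB5, HLA-DRB1, HLA-DQA1 and HLA-DQB1 to the antigen-processing genes TAP2, PSMB8, TAP1 and PSMB9, and on to HLA-DPB1. That build differs from the build of the peaks, so no peak was tied to a gene, and regions are given by their hg18 positions.

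The MHC was rich in accessible sites in every line. In the order L1236, L428, L591, Reh and Namalwa it held 176, 137, 163, 149 and 42 peaks. This came to 47.6, 37.0, 44.1, 40.3 and 11.4 peaks per Mb, against 6.38, 10.7, 10.3, 6.19 and 1.08 on the rest of chromosome 6. The mean log2 ratio of the 2 densities was 2.58 ± 0.64 (SD, n = 5 lines), a 5.96-fold higher density in the MHC. It was above 0 in 5 of 5 lines, with a two-sided exact sign-flip permutation p of 0.063, the smallest that 5 lines allow (Benjamini-Hochberg 0.063 over 4 such comparisons). The ratio was lowest in L428, at a log2 value of 1.79, and highest in Namalwa, at 3.39. L428 also had 167 regions in the single Mb from 138 to 139 Mb of chromosome 6, and without that window its log2 ratio was 1.92.

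Class III was the densest of the classes in all 5 lines. Peaks per Mb in class I, class III and class II were 36.1, 60 and 57 in L1236 and 28.9, 51.1 and 39 in L428. They were 37.2, 64.4 and 38 in L591, 31.7, 56.7 and 41 in Reh, and 6.67, 21.1 and 11 in Namalwa. The class III density exceeded that of class I by a log2 value of 0.97 ± 0.39 (SD, n = 5) and that of class II by 0.53 ± 0.34. Both differences had the same sign in 5 of 5 lines (two-sided exact sign-flip permutation p = 0.063, Benjamini-Hochberg 0.063, for each). L1236 had nearly equal densities in class III and class II, with a log2 ratio of 0.07, whereas in L591 this ratio was 0.76. With all limits 0.1 Mb higher, the L1236 ratio was -0.08 and the mean 0.28 (exact permutation p = 0.125). Against class I and class II, the mean differences were 1.68 and 0.92 when all lists had equal length.

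**Figure D1:**
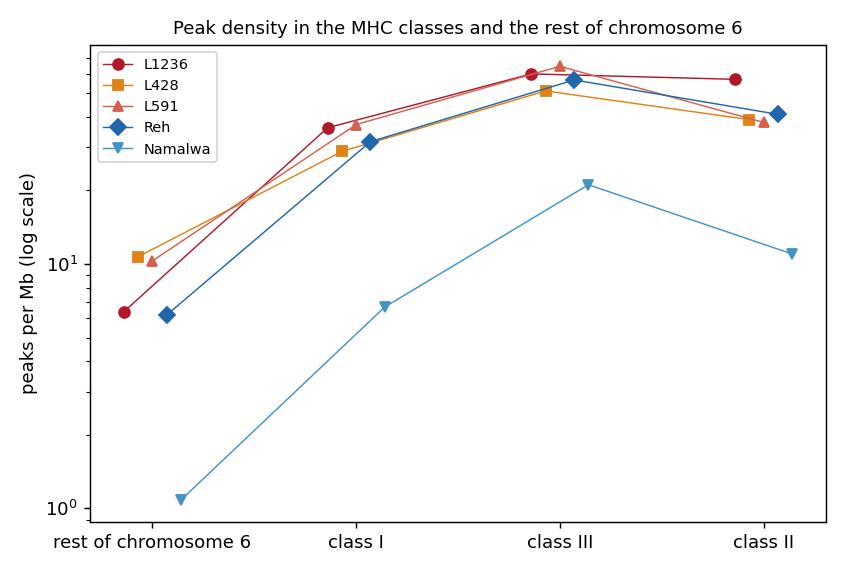
Peaks per Mb (log axis) of each cell line on the rest of chromosome 6 and in the 3 classes of the MHC, with 1 point per line. Every line rises from the rest of the chromosome to class I and peaks in class III, from 21.1 peaks per Mb in Namalwa to 64.4 in L591.

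The Hodgkin and non-Hodgkin lines overlapped in the share of their lists that fell in the MHC. The share was 0.686% of peaks in L1236 (exact Clopper-Pearson 95% interval 0.589 to 0.795), 0.588% in L428 (0.494 to 0.695) and 0.613% in L591 (0.522 to 0.714). It was 0.534% in Reh (0.452 to 0.626) and 0.729% in Namalwa (0.526 to 0.984). These intervals, like all others given here, cover counting error only. The group means were 0.629% ± 0.051 (SD, n = 3) and 0.631%, and the non-Hodgkin lines lay on either side of all Hodgkin lines (two-sided exact permutation test, 10 splits, p = 1, adjusted 1). At 6 U/ml, L1236 and L428 were above Reh, and at 12 U/ml L591 was below Namalwa. As a share of the chromosome 6 peaks, the MHC held 14.2% for L1236, 7.10% for L428, 8.65% for L591, 12.6% for Reh and 18.8% for Namalwa, a group difference of -5.74 points (two-sided exact permutation p = 0.3).

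The groups also overlapped in the share that each class took of the MHC peaks. Class III held 30.7% of MHC peaks for L1236, 33.6% for L428, 35.6% for L591, 34.2% for Reh and 45.2% for Namalwa. The group means were 33.3% ± 2.46 (SD, n = 3) and 39.7% (two-sided exact permutation p = 0.2, Benjamini-Hochberg 0.75 over 5 group comparisons). Reh lay inside the Hodgkin range, and the Namalwa value rests on 19 of 42 peaks (exact 95% interval 29.9 to 61.3%). Class I held 38.7% ± 2.17 and 33.4% (p = 0.3, adjusted 0.75, exact permutation). Class II held 28.1% ± 4.55 and 26.9% (p = 0.7, adjusted 1, exact permutation). No p under 0.1 was possible in these comparisons.

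Peak scores are peak areas with no scale common to the lists, so each peak was given its score percentile within its own list, where 100 is the highest. The median MHC peak stood at percentile 64.6 for L1236, 48.7 for L428, 51.1 for L591, 55.3 for Reh and 58.1 for Namalwa, against medians of 49.9 to 50 outside the MHC. The median MHC peak was 380 bp wide in L1236, against 310 bp outside. In the other lists these widths differed by 0 to 30 bp. The part of peak width in the percentiles was not tested. With score per bp ranked, the medians were 61.1 for L1236, 50.5 for L428, 51.1 for L591, 54.0 for Reh and 57.5 for Namalwa. In the score percentiles the groups overlapped, with means of 54.8 ± 8.57 (SD, n = 3) and 56.7 (two-sided exact permutation p = 0.8, adjusted 1). In L1236, 34 of 176 MHC peaks (19.3%) were among the top 10% of the list, and in Reh 24 of 149 (16.1%). The shares in L428, L591 and Namalwa were 9.49%, 11.7% and 11.9%. Class III held 19 of these 34 peaks in L1236, 7 of 13 in L428, 12 of 19 in L591, 10 of 24 in Reh and 2 of 5 in Namalwa. L1236 is the list that lacks the qcTrimmed mark of the other lists, and the part of that difference in its values was not tested.

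**Figure D2:**
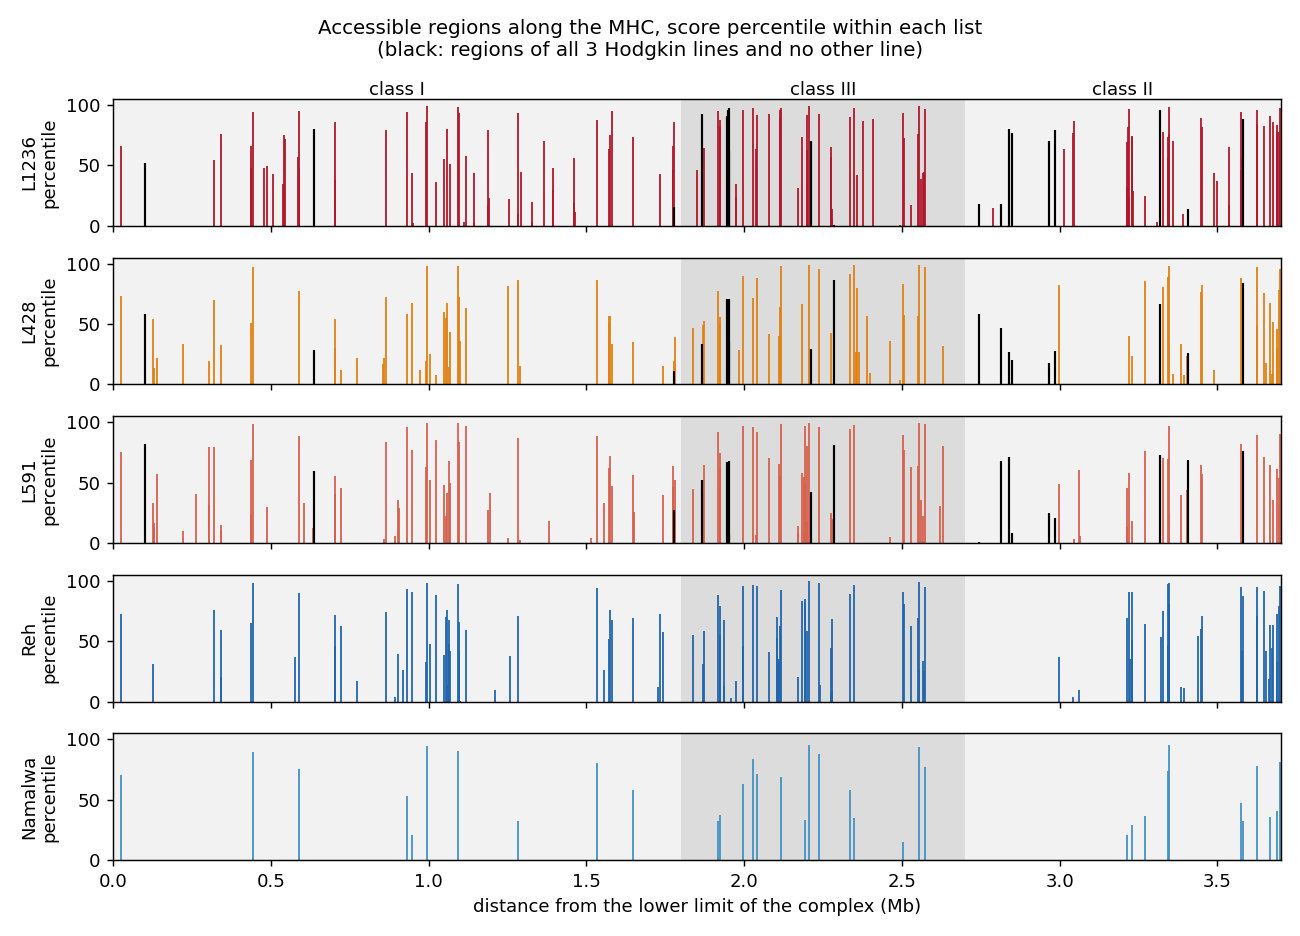
Merged regions along the MHC in each line. The horizontal axis is the distance from the lower limit of the complex in Mb, the height of each line is the score percentile within that list, the shaded band is class III, and black marks regions of all 3 Hodgkin lines without Reh or Namalwa. Black lines gather in class III and on the left side of class II. The Reh and Namalwa rows are empty at that side of class II, but have 45 and 14 regions in class III.

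Sites in the MHC were shared between lines more often than sites elsewhere. Of the MHC regions of L1236, 68.9% had a peak in another line, against 51.7% of its regions elsewhere. The values were 93.8% and 75.2% in L428, 87.7% and 71.3% in L591, 79.5% and 51.0% in Reh, and 100% and 99.3% in Namalwa. The mean difference was 16.3 percentage points ± 9.98 (SD, n = 5) and was positive in 5 of 5 lines (two-sided exact sign-flip permutation p = 0.063, Benjamini-Hochberg 0.063). A shared region counts in every line that has it. The 5 values are thus not independent, as the sign-flip test takes them to be, and its p-values here are only descriptive. With lists of equal length the mean difference was 8.68 points, with 4.92 in L591 and 8.46 in Reh. With peaks set to 200 bp the difference was positive in all lines but Namalwa (-1.07 points, exact permutation p = 0.125 over the lines). With the lists as deposited the difference was largest in Reh, at 28.5 points. In Namalwa there was little room for one, since 4929 of its 4965 regions elsewhere were already shared.

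Every MHC region of Namalwa was open in other lines too. All 35 had a Reh peak and all 35 an L591 peak, 34 had an L1236 peak and 33 an L428 peak. Outside the MHC, Namalwa regions had a Reh peak in 98.7% of cases, so that the count for Reh is near its background. They had an L591 peak in 82.6%, an L428 peak in 76.9% and an L1236 peak in 66.6% of cases. L428 and L591 shared 109 of the 173 MHC regions that either had (63.0%, against 42.7% elsewhere). L591 and Reh shared 47.4% and L1236 and Reh 36.5%, against 26.3% and 17.0% elsewhere. In class II, L428 and L591 shared 31 of 43 regions (72.1%).

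Of the 260 regions, 33 had a peak in all 5 lines (12.7%, exact 95% interval 8.90 to 17.4). Over all merged regions the share was 5.12%. Class I held 10 of them, class III 13 and class II 10. Another 32 MHC regions had peaks in every line but Namalwa, so that 65 (25%) were open in all 4 lines with long lists, where the share over all merged regions was 9.16%. Peak density was also higher in the complex, and its part in this sharing was not tested. Regions of 1 line alone numbered 106 (40.8%), where the share over all merged regions was 62.9%.

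The strongest of the shared sites ranked near the top of every list. In class III, the region from 31902331 to 31905630 was the broadest of the complex, at 3300 bp. It stood at percentile 99.1 for L1236, 98.9 for L428, 99.6 for L591, 99.6 for Reh and 95.5 for Namalwa. The region from 32252971 to 32254390 followed, at 99.4, 99, 99.6, 99 and 93.9 in the same order of lines. Both were picked by the highest value of the lowest percentile over the lines, so their high rank in every list follows from that choice. The other class III regions named by the same rule were 31938191 to 31938990, 32270711 to 32272440 and 31727421 to 31729100, with lowest percentiles of 88.2, 77.5 and 71.4.

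In class I the leading region was 30692611 to 30693860, at percentile 99.1 for L1236, 98.2 for L428, 99 for L591, 98.5 for Reh and 94.6 for Namalwa. The regions 30792581 to 30793630 and 30142241 to 30143350 had lowest percentiles of 90.3 and 89.3, in each case in Namalwa. The regions 31233851 to 31234870 and 30288711 to 30290160 stood lower, with lowest percentiles of 80.5 and 75.7. In class II the region 33047141 to 33048760 led, at 98.3, 97.7, 96.8, 98.6 and 95.3 in L1236, L428, L591, Reh and Namalwa. It was followed by 33398591 to 33399550 and 33324511 to 33325480, with lowest percentiles of 81.5 and 78.0. Next came 33043881 to 33044890, lowest in L1236 at 55.8, and 33275611 to 33276980, lowest in Namalwa at 47.7.

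The shared sites of class III ranked high in the 4 long lists. Over the 13 class III regions the median percentile was 96.0 for L1236, 91.3 for L428, 96.0 for L591, 95.4 for Reh and 68.6 for Namalwa. Over the 10 class II regions it was 83.9, 86.5, 72.9, 93.1 and 44.2, and over the 10 class I regions 93.5, 82.1, 88.6, 92.3 and 73.1. The lowest L591 value was 74.6 in class III and 18.2 in class II. Over regions of all 5 lines elsewhere the medians were 78.1 for L1236, 85.9 for L428, 90.4 for L591, 92.7 for Reh and 64.4 for Namalwa. L1236 thus had its shared MHC sites higher in its list, at a median of 93.8. Namalwa percentiles refer to a far shorter list and are not on the same footing as those of the long lists.

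Some shared sites differed widely between the lines. The region 32928911 to 32930060 in class II stood at percentile 91.1 in Reh and 74.1 in L1236, but at 23.5 in L428, 18.2 in L591 and 29.3 in Namalwa. The class I region 30646831 to 30647660 stood at 91.1 in Reh, 76.6 in L591 and 67.7 in L428, and at 43.5 in L1236 and 21.3 in Namalwa. The widest range belonged to the class III region 32203621 to 32204370, which stood at 83.2 to 93.1 in the 4 lines with long lists and at 15.0 in Namalwa. None of these splits followed the Hodgkin and non-Hodgkin groups. As a description, Spearman's rho of the percentiles over the 33 regions was 0.85 for L1236 with L591, 0.82 for L428 with L591 and 0.75 for Reh with Namalwa. It was lowest for L1236 with Namalwa, at 0.60. These points share their libraries and are not independent.

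**Figure D3:**
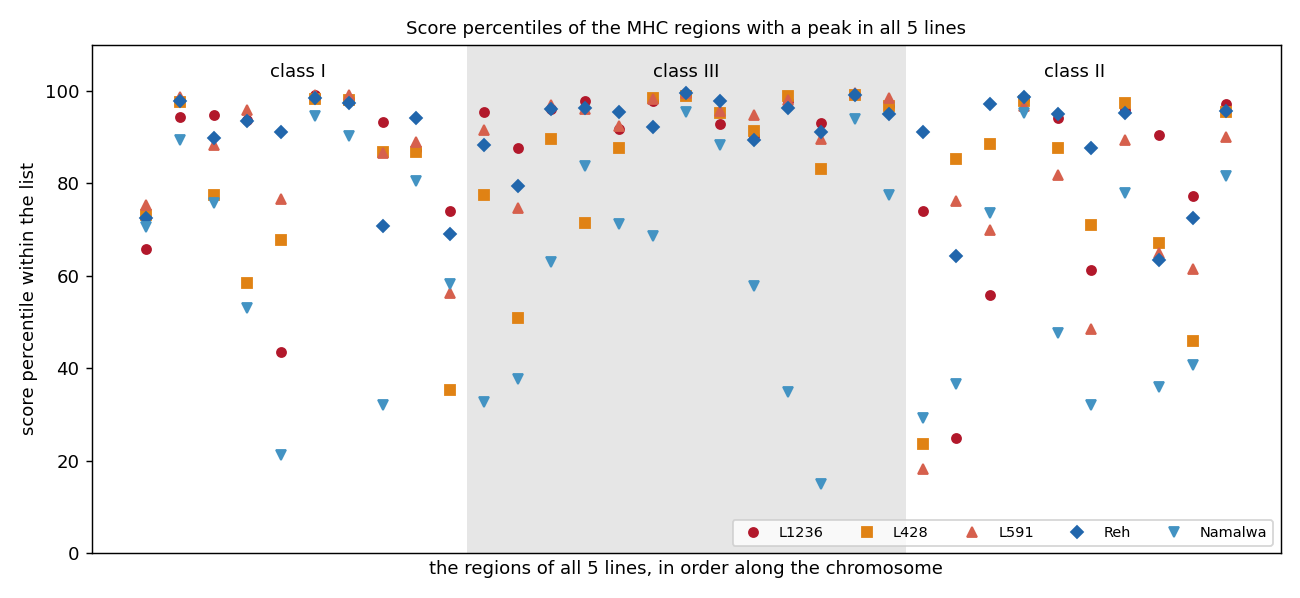
Score percentiles within each list of the 33 MHC regions with a peak in all 5 lines, in order along the chromosome, with 1 symbol per line and class III shaded. In class III the L1236, L591 and Reh symbols stay above 74, while in class II they spread down to 18.2.

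Sites open in all 3 Hodgkin lines and in neither Reh nor Namalwa numbered 19 (7.31%, exact 95% interval 4.46 to 11.2), where the share over all merged regions was 4.33%. Class II held 9 of its 69 regions (13.0%, 6.14 to 23.3), class III 7 of 83 (8.43%, 3.46 to 16.6) and class I 3 of 108 (2.78%, 0.577 to 7.90). The lower end of the MHC interval lies close to the share over all regions, and the difference between the classes was not tested. Of the 10 groups of 3 lines, the Hodgkin lines had the most MHC regions to themselves, ahead of 11 for L428, L591 and Reh (one-sided exact permutation p = 0.1, the smallest possible). Groups of 3 with Namalwa had at most 1, and its short list left them little room. Only 4 groups lack it, so this p-value cannot separate the Hodgkin grouping from list length. Left-out lines moved the Hodgkin-only count. It was 33 without L1236 (15.2%, against 12.5% elsewhere), 29 without L428 (11.5%, against 7.64%) and 51 without Reh (21.4%, against 10.5%). With Namalwa ignored, an alternative chosen after the data were seen, the counts were still 19 and 11. The one-sided exact permutation p was then 0.25 over 4 groups, the smallest possible. Over all merged regions the Hodgkin lines also had more to themselves when Namalwa was counted, with 4.33% against 3.55% for L428, L591 and Reh. With Namalwa ignored that order turned, with 2572 (4.34%) and 2793 (4.72%).

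The rank of the Hodgkin-only sites differed between the lines, and their number depended on the length of the lists. They had a median percentile of 76.5 for L1236, 33.6 for L428 and 59.5 for L591. Over the 2547 Hodgkin-only regions elsewhere the medians were 64.5, 60.9 and 60.5 in the same order. In the MHC, 5 of the 19 were in the top 10% of the L1236 list, with 0 in that of L428 or L591. Elsewhere, 394 of the 2547 were in the top 10% for L1236, 301 for L428 and 286 for L591. With all lists limited to their 5760 highest peaks, 0 Hodgkin-only regions were left in the MHC, against 2.69% of regions elsewhere. With the upper 50% of each list 5 were left (3.40%), against 3.82% elsewhere. The share in the MHC was thus above that elsewhere with the lists as deposited and below it in both shorter sets. At 6 U/ml, 25 MHC regions were in L1236 and L428 without Reh (9.62%, against 6.18% elsewhere), and 36 were in Reh without either of them (13.8%, against 25.7%). At 12 U/ml, 119 were in L591 without Namalwa (45.8%, against 36.5%), where the Namalwa list is the short one.

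**Figure D4:**
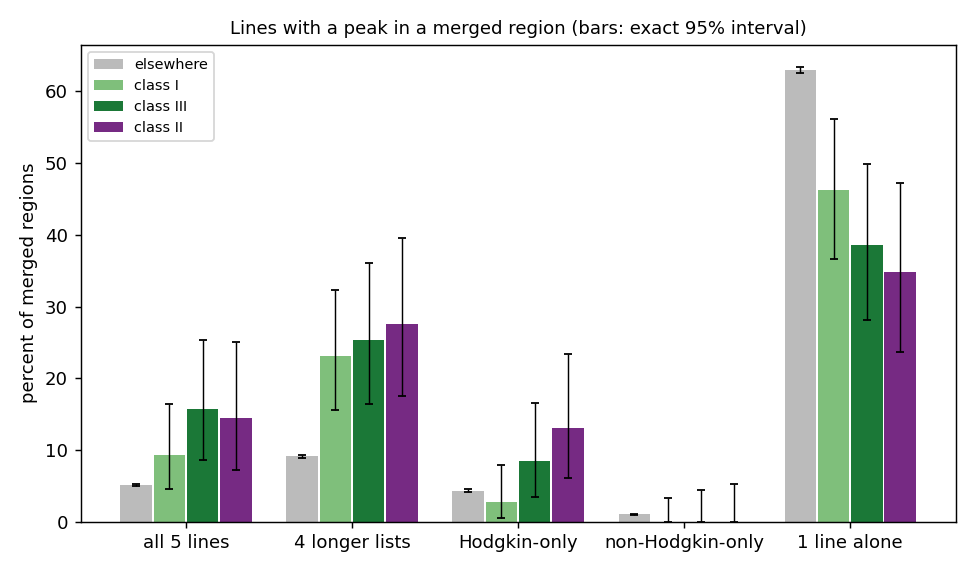
Percentage of merged regions in each set of lines, elsewhere in the genome (grey) and in class I, class III and class II, where the set of 4 longer lists takes no account of Namalwa, and error bars are exact 95% intervals. Regions of 1 line alone make up 63.0% elsewhere and 34.8% in class II, and Hodgkin-only regions reach 13.0% in class II.

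Of the 7 Hodgkin-only regions of class III, 4 lay together within 8.8 kb, from 31644241 to 31653020. The most prominent was 31650301 to 31651690, at percentile 97.7 for L1236, 70.9 for L428 and 67.8 for L591. The region 31644241 to 31644690 stood at 91.3, 70.3 and 66.9, and 31647461 to 31648550 at 96.0, 33.6 and 51.1. The last of the group, 31652581 to 31653020, stood at 61.6, 35.0 and 7.17, and is named because it completes the group, after its values were seen. All 4 were higher in the L1236 list than in the others. L1236 had 3 further small regions between them, so that 7 L1236, 5 L428 and 4 L591 peaks fell in the stretch.

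Neither Reh nor Namalwa had a peak in this stretch. Such regions, without Reh and Namalwa, made up 128 of the 260 in the MHC (49.2%) and 55.9% of all merged regions. The nearest Reh peaks ended 8.2 kb before it and began 3.7 kb after it. The Reh peak before it, from 31635521 to 31636020, was found in Reh alone at percentile 67.7, and the one after it stood at only 3.2. Sites close by were shared by the groups. The region 31622941 to 31623510 was open in all 5 lines, as was 31695581 to 31696610, where Reh stood at 96.0. The stretch was picked out after the data were seen, as a run of neighbouring regions without Reh and Namalwa. Of 8660 such runs on all chromosomes, 85 (0.982%) held 4 or more Hodgkin-only regions, and 2 of the 49 runs in the MHC did. Shorter runs have less room for them. This run held 7 regions, and 1207 of the 8660 runs (13.9%) held 7 or more, 5 of them in the MHC. The share among runs of that length was not determined. Limited to the upper 50% of each list, 2 of the 4 regions were left, and with lists of equal length 0. The rule for the MHC places TNF and LTA in this class, but whether the stretch lies at those genes was not determined here.

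The other such run lay across the border of class III and class II, from 32320611 to 32686150. It was 365.5 kb long and held 10 regions, 6 of them Hodgkin-only, where 20 of the 8660 runs (0.231%) held 6 or more. Runs with 10 or more regions of any kind numbered 705 (8.14%), 2 of them in the MHC. The share among runs of that length was not determined. The 6 regions began at 32445461, 32515271, 32538281, 32549241, 32665351 and 32685541. The strongest, 32538281 to 32538800, stood at percentile 80.4 for L1236, 26.7 for L428 and 71.3 for L591. The region 32685541 to 32686150 stood at 79.7, 28.0 and 20.4, and 32515271 to 32515840 at 18.4, 47.1 and 67.8. The order of the lines thus differed from site to site. None of the 6 had a percentile above 80.4 in any line, and none was left with the upper 50% of each list.

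Reh and Namalwa had long empty stretches there. Reh had no region from 32272441 to 32698660, a gap of 426.2 kb and its longest in the MHC. Namalwa had none from 32272441 to 32914250, or 641.8 kb. With its short list, Namalwa had a median gap of 46.8 kb. The median gap was 9.13 kb in Reh, 8.12 in L1236, 12.6 in L428 and 10.4 in L591. The longest gaps of L1236, L428 and L591 were 218.1, 243.8 and 148.2 kb. Those of L1236 and L428 were in class I, and that of L591, from 32765611 to 32913850, lay beyond the run and within the Namalwa gap. The Hodgkin lines had 7, 7 and 9 peaks in the run, covering 2410, 1770 and 4060 bp, against 0 in Reh. Beyond the run, 32698661 to 32699110 was open in L428, L591 and Reh, at 82.2, 49.2 and 36.9. HLA-DR and HLA-DQ haplotypes differ between people in sequence and gene content, and short reads from a haplotype unlike the reference can fail to map. Whether this affected the peaks of any line was not tested.

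**Figure D5:**
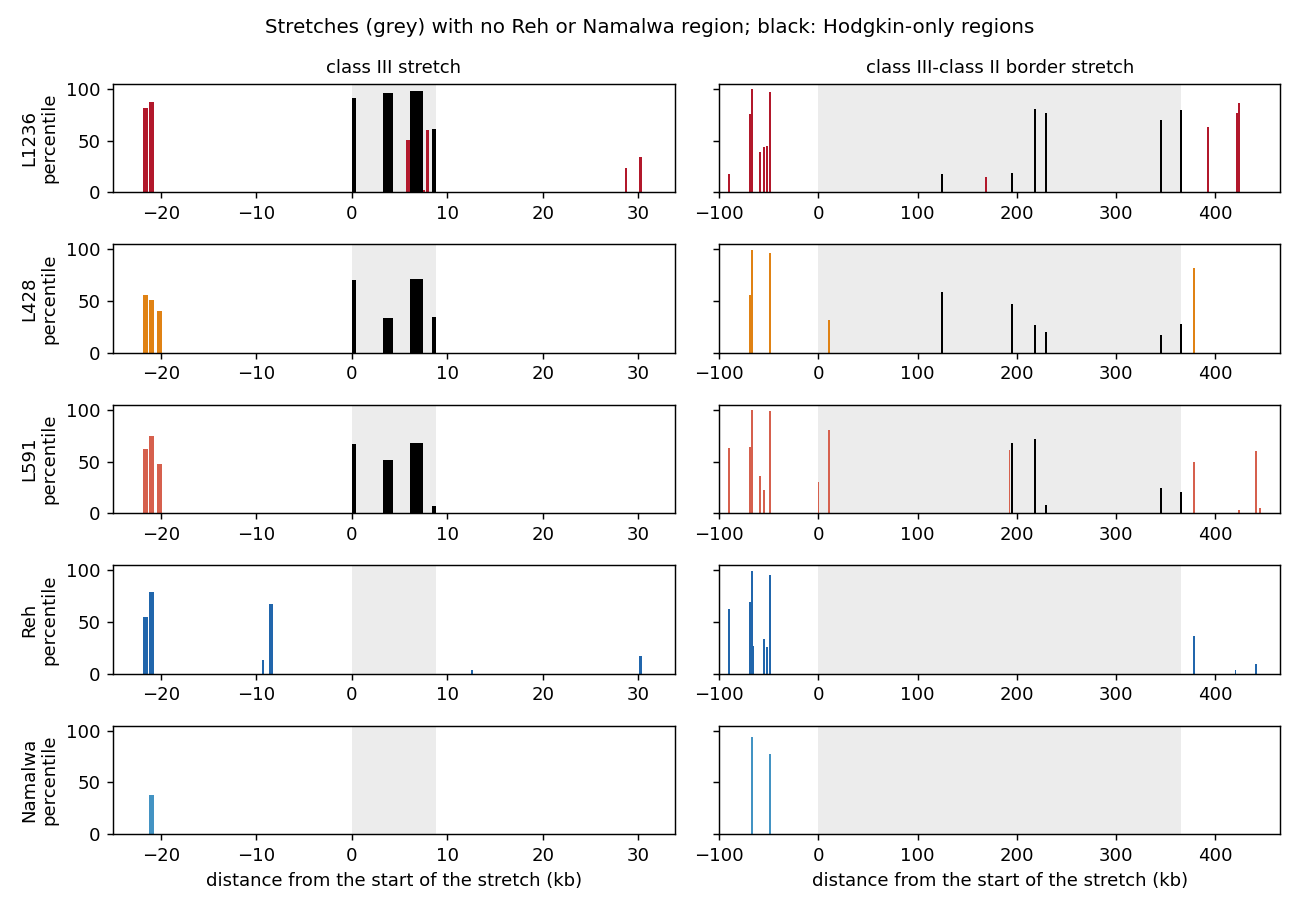
Regions of each line in and around the 2 runs (grey) without a Reh or Namalwa region, plotted by distance from the start of the run in kb against score percentile, with Hodgkin-only regions in black. The left run spans 8.8 kb and holds 4 black regions, and the right run spans 365.5 kb and holds 6.

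The remaining Hodgkin-only sites were scattered. In class II, 33280671 to 33281760 stood at percentile 88.3 for L1236, 83.7 for L428 and 75.9 for L591, the most even of the 19, and lay just beyond a region of all 5 lines that ended at 33280650. The region 33016601 to 33017540 stood at 96.2, 66.7 and 72.7. In class III, 31567491 to 31568130 stood at 92.7, 33.2 and 52.2, and 31910061 to 31911030 at 70.4, 29.2 and 42.5. Both were again highest in L1236. The class III region 31984371 to 31984940 went the other way, at 0.946 for L1236, 86.8 for L428 and 81.4 for L591. In class II, 33105001 to 33105590 was also lowest in L1236, at 13.6, against 26.2 in L428 and 68.9 in L591. The 3 class I regions were 29798651 to 29799810, at 51.8, 58.4 and 82.3, then 30334821 to 30335470, at 80.4, 28.4 and 59.5, and 31476141 to 31476570, at 15.9, 11 and 27.4.

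No MHC region was open in Reh and Namalwa alone. A count of 0 of 260 allows a share of up to 1.15%, and the share over all merged regions was 1.04%, so a difference was not detectable. With lists of equal length there were 4 such regions (4.71%, against 7.46% elsewhere, one-sided exact permutation p = 0.2). Reh had 27 MHC regions to itself (10.4%, exact 95% interval 6.96 to 14.7), against 21.5% over all merged regions. The strongest were 31805141 to 31805690, at percentile 70.4, and 31635521 to 31636020, both in class III, followed by 33137781 to 33138060 in class II, at 54.0. Namalwa had 0 MHC regions to itself, and 0.0608% of all merged regions were its own.

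L1236 had the most private sites, 52 (20% of MHC regions, exact 95% interval 15.3 to 25.4), close to its 19.8% of all merged regions. Of these, 25 were in class I, 11 in class III and 16 in class II. The strongest were 32107791 to 32108360 and 32075081 to 32075610 in class III, at percentiles 88.3 and 86.8, and 32916301 to 32916950 in class II, at 81.7. L591 had 19 private regions (7.31%, against 12.5% over all) and L428 had 8 (3.08%, against 9.02%). The strongest of L591 were 30001761 to 30002820 in class I, at 79.4, 32512841 to 32513480 in class II, at 61.3, and 31888311 to 31888810 in class III, at 54.4. Those of L428 were 32090371 to 32090710 in class III, at 56.6, 31272011 to 31272380 in class I, at 51.7, and 31683051 to 31683310 in class III, at 28.4. L428 had 0 private regions in class II, where a count of 0 of 69 allows a share of up to 4.35%.

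Regions were unevenly spaced along the complex. The windows of 100 kb with the most regions were 31.6 to 31.7 Mb and 31.8 to 31.9 Mb in class III, with 19 each, and 30.7 to 30.8 Mb in class I, with 15. The first held 13 L1236, 10 L428, 9 L591, 9 Reh and 3 Namalwa regions, and 4 of the Hodgkin-only ones. In the second L591 led with 14, ahead of 11 in Reh, 8 in L1236 and 4 in L428. In the class I window Reh had a peak in all 15 regions, L428 in 10, L591 in 9 and L1236 in 6. The longest stretch without any region ran for 148.2 kb from 32765611 to 32913850 in class II, and 32.8 to 32.9 Mb was the sole empty window of 37.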

How the data were processed

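DNase-seq peak lists of 5 cell lines were used. Bowtie 1.00 and hg18 are named in the submitters' processing notes, and the file columns name reads elongated to 146 bp and 10 bp bins. Which peak caller and threshold were used, and the depth, is not stated in the sources used here. Each deposited score is a peak area from the authors, a whole number with no stated scaling. The L1236 list lacks the qcTrimmed mark of the other 4. Peaks had been listed per line, not on pooled samples. Positions are 1-based.

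From these lists, peaks on chromosomes 1 to 22 and X sharing at least 1 bp were joined into regions. Peaks and regions took the class of their centre, and a region took the highest percentile of a line's peaks. The rest of chromosome 6 spans 167.2 Mb from its first to its last peak, less the MHC. Groups were compared over the 10 splits of lines, and paired values by sign flips over 5 lines. Shares have exact Clopper-Pearson intervals at 95%, and the limit of a count of 0 is 3 counts.

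Named were, in each class, up to 5 regions of all lines, 5 Hodgkin-only and 5 non-Hodgkin-only regions by lowest percentile. Up to 3 regions of each line alone, the 3 with the widest range, the 3 fullest windows and the longest gap were also named. Other regions named beside them were chosen after their values were seen. The members and lists were chosen with earlier results of these data known. Gene lists and marker lists were not used, and sequences are not shown, for want of hg18 annotation and sequence. Python 3.11.15, numpy 2.4.6, pandas 2.3.3, scipy 1.17.1 and matplotlib 3.10.9 were used. Joining was tested on simulated data, where 84 of 84 planted Hodgkin-only MHC regions were recovered among 8228 simulated regions. Alternatives covered list length, limits, overlap rule, peak width, denominator, density measure, ranked quantity, class definition and each line left out.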

Additional observations from a re-analysis of the deposited data

How the results depend on the processing

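The mean differences in density, of the MHC over the rest of chromosome 6 and of class III over class I and class II, and in sharing between lines kept their sign under the alternatives run (11, 10, 10 and 13 in this order, counting each line left out). Single lines changed sign under 2 of them: L1236 in class III against class II with limits 0.1 Mb higher (-0.08), and Namalwa in sharing with peaks of 200 bp (-1.07 points). Without the densest 1 Mb window of the rest of chromosome 6, chosen after the data were seen, the log2 density ratio was 2.62. The group differences in the MHC share, the class II share and the median percentile changed sign under some alternatives, and none had passed its test (p-values of 0.7 to 1, exact permutation). Those in the class I and class III shares kept their sign, at 0.409 to 10.1 and -12.0 to -0.948 points. The Hodgkin minus non-Hodgkin difference in the MHC share was 0.0666 percentage points with lists of equal length, 0.0186 with limits 0.1 Mb lower, and -0.1001 to 0.0955 with a line left out. That of the class II share was -0.991 with limits 0.1 Mb higher and -0.964 to 3.57 with a line left out. That of the median percentile was 0.333 with the upper 50% of each list, 0.173 with width ranked, and -6.81 to 1.14 with a line left out. Hodgkin-only regions numbered 0 with lists of equal length (against 2.69% elsewhere) and 5 with the upper 50% (3.40%, against 3.82%). They numbered 49 when 2 of 3 Hodgkin lines sufficed (18.85%, against 14.55%). With a line left out they numbered 19 to 51, 51 being without Reh (21.4%, against 10.5%). Without L1236 there were 33 (15.2%, against 12.5%) and without L428 29 (11.5%, against 7.64%). Non-Hodgkin-only regions numbered 4 with lists of equal length (4.71%, against 7.46% elsewhere). They numbered 1 with centres within 250 bp (0.340%, against 1.02%) and 1 with peaks of 200 bp (0.319%, against 0.961%). When 1 line sufficed they numbered 27 (10.4%, against 22.65%). With a line left out they numbered 0 to 27, 27 being without Namalwa (10.4%, against 22.6%). Regions of all lines numbered 20 with lists of equal length (23.5%, against 8.52% elsewhere) and 20 with the upper 50% (13.6%, against 5.48%). With a line left out they numbered 33 to 65, 65 being without Namalwa (25%, against 9.10%). Fewer lines and looser definitions set fewer conditions on a region. The cause of the other shifts was not tested. No paired analysis was possible because the labels give no replicate numbers that would pair Hodgkin with non-Hodgkin lines. The sign-flip comparisons pair values within a line. The unknown depth limits every statement that a line lacks a region.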

Other observations

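Class I held stretches that were open in some lines only, picked out after the data were seen. From 29828351 to 30003180, L591 had 7 regions and L428 had 5, while L1236, Reh and Namalwa had 0. Runs without Reh and Namalwa that held 7 or more regions were common, at 1207 of 8660 (13.9%) and 5 of 49 in the MHC. The longest L1236 gap in the MHC, 218.1 kb from 29799811 to 30017880, covers this stretch. The strongest site there was the L591 region 30001761 to 30002820, at percentile 79.4. Further along, from 30984501 to 31213520, L1236 had 10 of 14 regions, L591 had 3 and L428 had 1, and Reh and Namalwa had 0. Runs of 10 or more regions numbered 705 of 8660 (8.14%), and 2 of 49 in the MHC. The longest L428 gap, 243.8 kb from 30990031 to 31233850, lies over most of it. A region of all 5 lines stands on either side, 30983561 to 30984220 and 31233851 to 31234870.

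In class III, from 32055131 to 32194760, L428 had 7 of 9 regions, L1236 had 4 and L591 had 1. It was another of the 5 MHC runs of 7 or more regions, where the share over all runs was 13.9%. The region 32057541 to 32058150 was open in L428 at percentile 79.5 and in L1236 at 41.9. The highest percentiles of the run were those of 32107791 to 32108360 and 32075081 to 32075610, at 88.3 and 86.8. Both were found in L1236 alone. In the class III window from 31.8 to 31.9 Mb, neighbouring regions 31890341 to 31892210 and 31892241 to 31893480 were open in L591 and Reh but in neither L1236 nor L428. The former stood at percentile 96.7 in L591 and 81.3 in Reh, and the latter at 48.8 and 85.0, with a Namalwa peak at 33.7. These values have no test, and copy number was not analysed here.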
